A study of Homo sapiens with 12 samples.

Results

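Genes of plasminogen activation and of the start of blood coagulation were followed in MDA-MB-231 breast cancer tissue that was embedded in fibrin gel. The 9 members are PLAU, PLAT, PLAUR, ANXA2, SERPINB2, TFPI2, F3, TFPI and THBD, chosen by name from the 58735 genes of the deposited count table, and all 9 passed the low-count filter. MDA-MB-231 is an established human breast cancer line without hormone receptors and of mesenchymal shape, here carrying GFP. The cancer tissue was grown under flow in the AngioPlate, a perfused culture plate, in 3 conditions with 4 libraries each. In the cardiac co-culture it stood beside tissue of iPSC-derived cardiomyocytes with 2% cardiac fibroblasts, in the hepatic co-culture beside tissue of HepG2 hepatoma cells with 2% lung fibroblasts, and in monoculture it was alone. All tissues were set in fibrin, and RNA was taken from the cancer tissue 5 days after the cancer cells were seeded. The 4 libraries of a condition are labelled as biological replicates without separate cultures being named, so a p-value here reflects library-to-library spread, which may be technical, within a single cell line.

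Plasmin is the protease that dissolves fibrin, the matrix in which these cells sat. It is cut from plasminogen by urokinase (PLAU), which works on the cell surface in its receptor PLAUR, and by tissue plasminogen activator (PLAT), which binds fibrin itself. Serpins such as SERPINB2 block both activators, and MDA-MB-231 cells are known as strong producers of urokinase. Fibrin forms when tissue factor (F3) starts coagulation, a step that TFPI blocks, while THBD turns thrombin into an activator of the anticoagulant protein C.

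Library totals ran from 26227140 to 42430001 counts. Levels are given as CPM, counts scaled by TMM and set per 1e6 counts of a library, and between genes per kilobase of exon as well (RPKM). Cardiac replicate 4 stood apart from the other cardiac libraries: its score on principal component 1 (28.5% of variance) was -24.9, against 6.79 to 16.3 for cardiac replicates 1 to 3, 24.5 to 46.8 for the hepatic libraries and -51.1 to -22.3 for monoculture. The cell line's markers VIM, CD44, EGFR, MSN, CAV1 and AXL summed to 3347 to 3504 CPM in the cardiac, 3734 to 3860.1 CPM in the hepatic and 3334 to 3642 CPM in the monoculture libraries. Of 6 markers listed as low in this line, ESR1 and PGR had at most 8 counts and CDH1 at most 21 in any library. The others were present: ERBB2 averaged 64.0, 56.1 and 66.8 CPM in the cardiac, hepatic and monoculture libraries. EPCAM averaged 7.51, 6.72 and 8.12 CPM and GATA3 3.78, 3.19 and 4.67 CPM in the same order. Of 12 hepatocyte markers, APOA2, FABP1 and RBP4 had no count in any library and ALB at most 14. The sum was 69.3 to 94.9 CPM in the cardiac libraries, 34.5 to 58.5 CPM in the hepatic libraries and 41.8 to 74.2 CPM in monoculture. Nearly all of it was SERPINA1. Other markers did not follow the sum. In the same order, AFP averaged 0.0315, 0.254 and 0.0883 CPM and HNF4A 0.102, 0.210 and 0.0415 CPM. TF averaged 0.264, 0.288 and 0.0990 CPM, with at most 17 counts in a library. APOA1, AHSG and TTR, at 4 counts or fewer, were also highest on average in the hepatic libraries. ALB was highest in monoculture, and APOB was counted in cardiac libraries only. A part of partner cells in this was not tested. Of 12 cardiomyocyte markers, the sum was 18.8 to 21.1 CPM in the cardiac libraries, 19.5 to 21.5 CPM in the hepatic libraries and 15.3 to 19.1 CPM in monoculture, mostly TTN and RYR2. MYH6 reached 21 counts, and MYL7 and ACTN2 8 counts each, in a cardiac library, and all had none in the hepatic and monoculture libraries. NPPB went the other way, with none in the cardiac libraries and up to 3 counts in a hepatic and 6 in a monoculture library. MYH7 had at most 1 count, in the hepatic libraries only. PLN had up to 4 counts in a cardiac and 3 in a hepatic library and none in monoculture. TNNT2, TNNI3, MYL2 and NPPA had at most 13 counts in any library and were not confined to the cardiac libraries. Fibroblast markers summed to 15.5 to 18.2 CPM in the cardiac, 12.1 to 24.8 CPM in the hepatic and 15.8 to 22.8 CPM in the monoculture libraries. POSTN, THY1 and DPT had no count, and TCF21 had at most 2, in monoculture only. The others were present and moved in opposite directions. COL1A2 and COL3A1 averaged 4.55 and 0.634 CPM in the hepatic libraries, against 1.56 and 0.0891 CPM in monoculture. Their unscaled counts overlapped, at 53 to 276 and 10 to 44 in the hepatic libraries and 25 to 77 and 0 to 12 in monoculture. FBLN1 and DCN averaged 0.856 and 0.278 CPM in the hepatic libraries, against 6.12 and 2.48 CPM in monoculture. Their counts were 19 to 42 and 4 to 18 in the hepatic libraries and 197 to 321 and 33 to 124 in monoculture. COL1A1, LUM and PDGFRA were also higher on average in the hepatic libraries, and PDGFRB lower. A part of partner fibroblasts in this was not tested. Endothelial markers, of interest because endothelium makes PLAT, TFPI and THBD, summed to 14.0 to 15.9 CPM in the cardiac, 16.9 to 25.0 CPM in the hepatic and 11.1 to 18.5 CPM in the monoculture libraries. ERG was at 0 in all libraries and CDH5 had at most 5 counts, while TIE1 averaged 1.93 CPM in the cardiac, 3.15 CPM in the hepatic and 0.367 CPM in the monoculture libraries. In the same order PECAM1, most of the sum, averaged 10.2, 15.5 and 10.9 CPM and TEK 0.410, 0.604 and 0.291 CPM. KDR went opposite to TIE1, at 2.35, 1.26 and 3.22 CPM.

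The members lie on different chromosomes (GENCODE 29, GRCh38). PLAU (ENSG00000122861) spans chr10:73909177-73917497 on the plus strand, PLAUR (ENSG00000011422) chr19:43646095-43670547 on the minus strand and ANXA2 (ENSG00000182718) chr15:60347134-60402883 on the minus strand. SERPINB2 (ENSG00000197632) spans chr18:63871692-63903890 on the plus strand and TFPI2 (ENSG00000105825) chr7:93885396-93890991 on the minus strand. F3 (ENSG00000117525) spans chr1:94529225-94541800, TFPI (ENSG00000003436) chr2:187464230-187565760 and THBD (ENSG00000178726) chr20:23045633-23049741, all on the minus strand. Counts are per whole gene, so exons, splice forms and the alternative forms of TFPI were not told apart.

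The promoters of 4 members are shown because these genes moved in opposite directions beside other tissue: PLAUR and TFPI were higher, and F3 and TFPI2 lower, in the hepatic co-culture. Each sequence is the 250 bases before the RefSeq start (GRCh38.p14), 5′ to 3′ on the gene's strand. Capitals mark matches to TGANTCA (N for any base), a looser form of the AP-1 site that also admits TGAATCA. The windows are chr19:43670170-43670419, chr2:187554436-187554685, chr1:94541760-94542009 and chr7:93890754-93891003, each on the minus strand. The PLAUR and TFPI windows lie inside the spans that GENCODE gives these genes. The F3 and TFPI2 windows lie partly inside their spans and reach past the start.
PLAUR: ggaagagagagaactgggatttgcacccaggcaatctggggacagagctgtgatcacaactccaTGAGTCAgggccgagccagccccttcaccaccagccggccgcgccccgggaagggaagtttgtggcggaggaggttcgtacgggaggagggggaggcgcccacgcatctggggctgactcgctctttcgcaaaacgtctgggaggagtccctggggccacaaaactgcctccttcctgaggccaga
TFPI: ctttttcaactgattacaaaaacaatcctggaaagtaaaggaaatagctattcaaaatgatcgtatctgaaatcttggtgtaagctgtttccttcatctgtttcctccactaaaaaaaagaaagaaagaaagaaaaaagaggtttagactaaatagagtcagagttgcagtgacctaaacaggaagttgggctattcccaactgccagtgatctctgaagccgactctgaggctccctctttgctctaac
F3: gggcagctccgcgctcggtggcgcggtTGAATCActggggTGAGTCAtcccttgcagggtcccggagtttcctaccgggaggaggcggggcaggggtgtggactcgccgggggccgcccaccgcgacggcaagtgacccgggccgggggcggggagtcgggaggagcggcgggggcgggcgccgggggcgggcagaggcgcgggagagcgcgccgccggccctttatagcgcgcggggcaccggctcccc
TFPI2: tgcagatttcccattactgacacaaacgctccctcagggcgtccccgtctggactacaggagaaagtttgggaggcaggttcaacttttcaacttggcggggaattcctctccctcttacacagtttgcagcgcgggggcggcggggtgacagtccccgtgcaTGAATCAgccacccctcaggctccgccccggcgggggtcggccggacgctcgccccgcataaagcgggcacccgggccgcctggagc
TGANTCA, which reads the same on both strands, was found in 5 of the 7 members that had a promoter in the RefSeq table (PLAUR, SERPINB2, F3, TFPI2 and ANXA2), and in 6.6% of all 35116 promoter windows of the same length. F3 held 2 matches, TGAATCA at 223 to 217 bases and TGAGTCA at 210 to 204 bases before the start. PLAUR held TGAGTCA at 186 to 180 bases and TFPI2 TGAATCA at 87 to 81 bases before the start. The GC box GGGCGG or its complement CCGCCC was found in 4 of the 7 members (PLAU, F3, TFPI2 and ANXA2) and in 42.6% of all windows, with 4 matches in F3. TATAAA or its complement TTTATA was found in 3 (SERPINB2, F3 and ANXA2) and in 10.7% of all windows. The motifs do not overlap in these windows other than the GC boxes of ANXA2 among themselves. Members with TGANTCA were thus found among those that were higher, those that were lower and those that did not pass a test, and a match in letters does not show binding.

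Per length, ANXA2 and PLAU were the most abundant members and SERPINB2 the least. ANXA2 averaged 299 ± 35.8 RPKM in the cardiac co-culture, 285 ± 32.5 RPKM in the hepatic co-culture and 296 ± 35.8 RPKM in monoculture (SD, n = 4 each), and PLAU 116 ± 21.3, 141 ± 9.99 and 124 ± 7.36 RPKM in the same order of conditions. Over the 12 libraries, 99.0% of 19951 protein-coding genes had a lower mean RPKM than PLAU and 99.7% a lower one than ANXA2. F3, PLAT, TFPI and PLAUR formed a middle tier with means over the 12 libraries of 42.1, 30.7, 29.2 and 26.9 RPKM. THBD averaged 11.5 RPKM and TFPI2 6.53 RPKM, and SERPINB2 only 0.145 RPKM. In monoculture, F3 at 37.8 to 54.0 RPKM did not overlap PLAT at 23.1 to 27.5 RPKM, while PLAT, PLAUR (18.1 to 23.2 RPKM) and TFPI (17.2 to 22.7 RPKM) overlapped with at least 1 neighbour in that order. Exon lengths are the union over all annotated transcripts, 11714 bases for TFPI and 8824 bases for ANXA2, so RPKM understates genes for which the annotation adds long rare exons.

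Among the activators and their receptor, PLAUR and PLAT rose in both co-cultures and PLAU did not pass edgeR's test with the low-count filter and all 12 libraries in any comparison. PLAUR, the urokinase receptor, had 130.0, 143, 132 and 116 CPM in the cardiac libraries (replicates 1 to 4), 142, 135, 130.3 and 128 CPM in the hepatic libraries and 104, 96.3, 80.8 and 103 CPM in monoculture. Every co-culture library was above every monoculture library. Against monoculture, PLAUR rose by 0.48 ± 0.08 in hepatic co-culture (log2 fold change ± SE; edgeR quasi-likelihood F test, adjusted p = 2.92e-04). In cardiac co-culture it rose by 0.44 ± 0.08 (edgeR adjusted p = 0.00623). These 2 comparisons share the monoculture libraries, and both calls held whichever of the 12 libraries was left out. Since the libraries are bulk, a change in the share of cells with a transcript and a change in transcript per cell cannot be told apart, here and for the other members.

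PLAT (ENSG00000104368, chr8:42175233-42207724, minus strand), the fibrin-binding activator, had 221, 206, 215 and 173 CPM in the cardiac libraries, 261, 238, 235 and 215 CPM in the hepatic libraries and 158, 179, 182 and 153 CPM in monoculture. The hepatic libraries were all above monoculture, and of the cardiac libraries replicate 4 fell within the monoculture range. PLAT rose by 0.50 ± 0.08 in the hepatic co-culture (edgeR adjusted p = 3.10e-04) and by 0.28 ± 0.08 in the cardiac co-culture (adjusted p = 0.0473). The cardiac call was close to the threshold of 0.05 and ended in 8 of 12 fits that left out 1 library, and without cardiac replicate 4 the change was 0.35 (adjusted p = 0.00396). The 8 fits were those without monoculture replicates 1, 3 or 4, hepatic replicates 2 or 3, or cardiac replicates 1 to 3, with log2 fold changes from 0.24 to 0.32 and adjusted p up to 0.144. In a fit on the 8 libraries of these conditions alone it also ended (0.28, adjusted p = 0.0509).

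PLAU, urokinase, had 302, 278, 378 and 412 CPM in the cardiac libraries, 447, 405, 381 and 434 CPM in the hepatic libraries and 389, 371, 337 and 366 CPM in monoculture. The groups overlapped in all 3 comparisons, and the cardiac libraries were the most spread, with replicates 1 and 2 below all other libraries. The log2 fold change was 0.19 for hepatic co-culture against monoculture (95% interval -0.02 to 0.40, edgeR adjusted p = 0.180) and -0.09 for cardiac co-culture against monoculture (-0.31 to 0.12, adjusted p = 0.609). Between the co-cultures it was -0.28 (-0.49 to -0.07, adjusted p = 0.114), and -0.38 without cardiac replicate 4 (adjusted p = 0.0171), and -0.28 without the low-count filter (adjusted p = 0.00468), the alternatives that made this a call. The hepatic difference became a call in a fit on the libraries of those 2 conditions alone (0.19, adjusted p = 0.0429). C10orf55, annotated over PLAU on the other strand, had 0.293% as many counts as PLAU.

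ANXA2, the annexin that with S100A10 binds plasminogen and PLAT at the cell surface, had 2349 to 3085 CPM in the cardiac libraries, 2169 to 2870.1 CPM in the hepatic libraries and 2304 to 2918 CPM in monoculture. The groups covered nearly the same range. Its log2 fold changes were -0.05 (hepatic co-culture against monoculture, 95% interval -0.27 to 0.16), 0.02 (cardiac co-culture against monoculture, -0.20 to 0.23) and 0.07 (cardiac against hepatic co-culture, -0.14 to 0.29). The processed pseudogene ANXA2P2 had 5.86% as many counts as ANXA2, and reads of these near-identical copies may have been split in counting. S100A10, its partner, was likewise not called, with log2 fold changes of -0.09, -0.05 and 0.03 in the same comparisons. Adding the annexin A2 pseudogenes to ANXA2 changed no call.

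**Figure D1:**
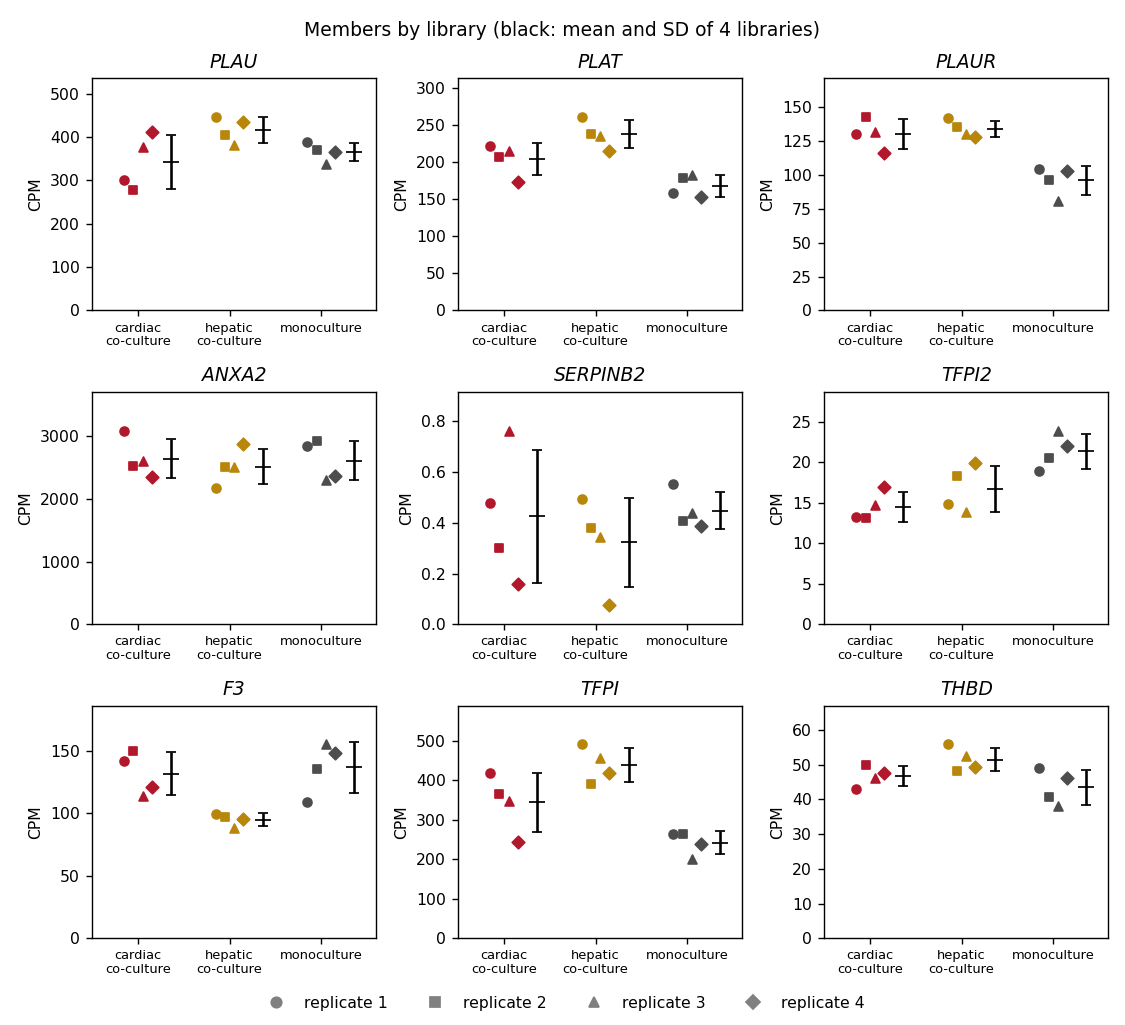
CPM of the 9 members (y axis, from 0) in the cardiac co-culture, hepatic co-culture and monoculture libraries; symbols are replicates 1 to 4 and the black bar is the mean with its SD (n = 4). PLAUR is higher in all 8 co-culture libraries than in monoculture, F3 is lower in the 4 hepatic libraries than in all others, and TFPI of cardiac replicate 4 (243 CPM) lies among the monoculture libraries.

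Among the inhibitors, TFPI2 fell in both co-cultures and SERPINB2 was close to the limit of detection. SERPINB2, a serpin that inhibits urokinase and PLAT, had 13, 8, 25 and 6 counts in the cardiac libraries, 14, 16, 10 and 2 counts in the hepatic libraries and 20, 16, 19 and 14 counts in monoculture, or at most 0.763 CPM. No difference was detectable at this depth, with 95% intervals from -1.64 to 0.73 (hepatic co-culture against monoculture) and from -1.24 to 1.09 (cardiac co-culture against monoculture) on the log2 scale. TFPI2, a secreted Kunitz-type inhibitor of plasmin and other serine proteases, had 13.2, 13.1, 14.7 and 17.0 CPM in the cardiac libraries, 14.8, 18.3, 13.8 and 19.9 CPM in the hepatic libraries and 18.9, 20.5, 23.9 and 22.0 CPM in monoculture. All cardiac libraries were below monoculture, and hepatic replicate 4 overlapped monoculture replicate 1.

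TFPI2 fell by 0.55 on the log2 scale in the cardiac co-culture (-0.55 ± 0.13, edgeR adjusted p = 0.0163) and by 0.35 in the hepatic co-culture (-0.35 ± 0.13, adjusted p = 0.0436). The hepatic call ended with upper-quartile scaling (-0.32, adjusted p = 0.0651) and in 6 fits that left out monoculture replicates 2 to 4, hepatic replicates 1 or 3, or cardiac replicate 3, with log2 fold changes from -0.38 to -0.27 and adjusted p up to 0.152. The cardiac call ended without monoculture replicate 3 or cardiac replicates 1, 2 or 3 (log2 fold changes from -0.56 to -0.49, adjusted p up to 0.0663), and without cardiac replicate 4 it was -0.64 (adjusted p = 0.00284).

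At the start of coagulation, F3 and its inhibitor TFPI moved in opposite directions in the hepatic co-culture. F3, tissue factor, had 142, 149.8, 114 and 121 CPM in the cardiac libraries, 99.2, 97.0, 87.8 and 95.6 CPM in the hepatic libraries and 109, 135, 155 and 148 CPM in monoculture. Every hepatic library was below every library of the other conditions. F3 fell by 0.53 in the hepatic co-culture (-0.53 ± 0.10, edgeR adjusted p = 0.00128) and was -0.06 ± 0.10 in the cardiac co-culture (adjusted p = 0.773). The difference between the co-cultures passed the test itself, at 0.47 ± 0.10 for cardiac against hepatic co-culture (adjusted p = 0.0103), and neither F3 call ended in any of 12 fits that left out 1 library.

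TFPI had 419, 365, 349 and 243 CPM in the cardiac libraries, 491, 390.4, 456 and 418 CPM in the hepatic libraries and 265, 265, 202 and 238 CPM in monoculture. All hepatic libraries and cardiac replicates 1 to 3 were above monoculture, and cardiac replicate 4 lay inside the monoculture range. TFPI rose by 0.85 ± 0.14 in the hepatic co-culture (1.81-fold, edgeR adjusted p = 9.98e-04), the largest fold among the members in the 3 comparisons, and by 0.50 ± 0.14 in the cardiac co-culture (adjusted p = 0.0495). The cardiac call held in 1 of 12 fits that left out a library, the one without cardiac replicate 4 (0.64, adjusted p = 4.03e-04). In the other 11 the change was 0.39 to 0.55 with adjusted p of 0.0503 to 0.137. The call also ended with DESeq2's size factors (adjusted p = 0.050) and in a fit on the 8 libraries of these conditions alone (0.51, adjusted p = 0.0996). The antisense gene AC007319.1 shares 118 exonic bases with TFPI and had 531 counts over all libraries, against 133738 for TFPI.

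THBD, thrombomodulin, had 42.9, 49.8, 46.1 and 47.6 CPM in the cardiac libraries, 55.8, 48.2, 52.5 and 49.4 CPM in the hepatic libraries and 49.0, 40.8, 38.0 and 46.1 CPM in monoculture. The conditions overlapped in all comparisons. THBD rose by 0.24 ± 0.09 in the hepatic co-culture (edgeR adjusted p = 0.0403) and was 0.10 ± 0.09 in the cardiac co-culture (adjusted p = 0.50). The hepatic call ended in 6 of 12 fits that left out 1 library (monoculture replicates 2 to 4, hepatic replicates 1 or 3, or cardiac replicate 3), with 0.18 to 0.27 and adjusted p up to 0.154, without the low-count filter (0.24, adjusted p = 0.0553) and with the replicate block (0.25, adjusted p = 0.0545).

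Counted together, 6 of 9 members passed edgeR's test for hepatic co-culture against monoculture, 4 higher (PLAT, PLAUR, TFPI and THBD) and 2 lower (F3 and TFPI2), where 28.0% of the 17468 tested genes passed (14.4% higher and 13.6% lower). The libraries of the groups did not overlap for 4 members (PLAT, PLAUR, TFPI and F3), as for 30.5% of all tested genes. For cardiac co-culture against monoculture, 4 of 9 passed, 3 higher (PLAUR, PLAT and TFPI) and 1 lower (TFPI2), where 8.26% of all tested genes passed (4.93% higher and 3.33% lower). The libraries did not overlap for PLAUR and TFPI2, as for 15.2% of all tested genes. The median absolute log2 fold change of the members was 0.45 (hepatic) and 0.10 (cardiac), beside 0.26 and 0.19 over all tested genes. The cardiac median of the members was thus the smaller of that pair. Without cardiac replicate 4, 1754 genes were called higher and 1624 lower in the cardiac comparison, against 862 and 581 with all libraries.

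For cardiac against hepatic co-culture, F3 was the only member to pass (higher in the cardiac libraries), where 6.18% of all tested genes passed (3.27% higher and 2.91% lower), and the only one whose libraries did not overlap, as for 11.9% of all tested genes. The log2 fold changes of the other members ran from -0.35 (TFPI, 95% interval -0.66 to -0.04, adjusted p = 0.182) to 0.37 (SERPINB2, -0.83 to 1.58). PLAT was -0.22 (-0.40 to -0.05, adjusted p = 0.130), TFPI2 -0.20 (-0.47 to 0.07), THBD -0.14 (-0.32 to 0.04) and PLAUR -0.04 (-0.21 to 0.13). For PLAT and TFPI the smaller change in the cardiac co-culture was therefore not shown to differ from that in the hepatic co-culture.

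**Figure D2:**
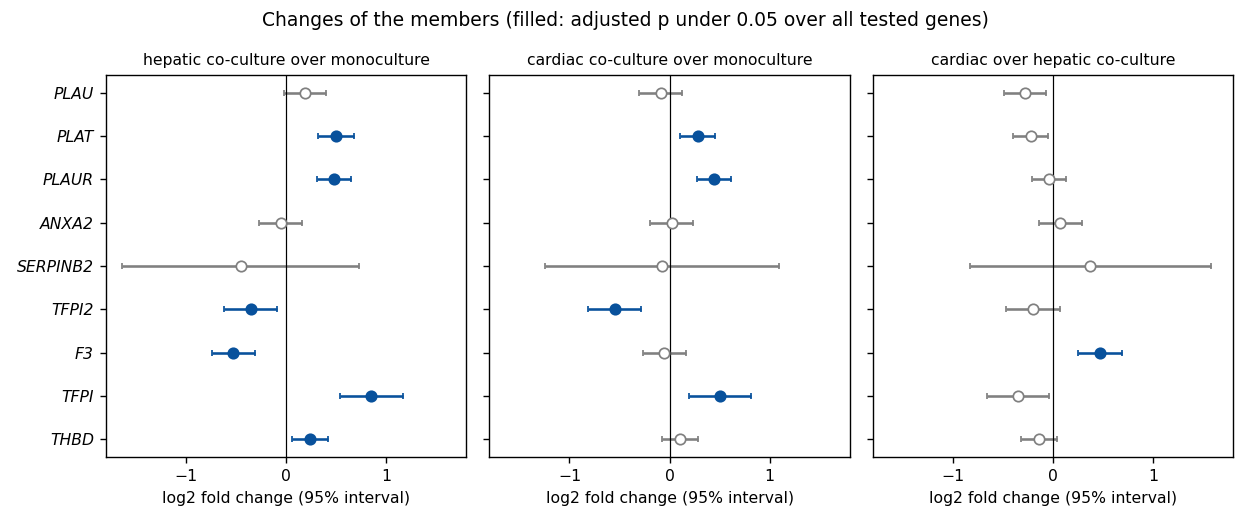
Log2 fold change (x axis) of the 9 members in the 3 comparisons, with 95% intervals; filled points have an adjusted p under 0.05. In the hepatic comparison TFPI (0.85), PLAT (0.50), PLAUR (0.48) and THBD (0.24) are filled on the right and F3 (-0.53) and TFPI2 (-0.35) on the left, and F3 (0.47) is the only filled point between the co-cultures.

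The ratio of F3 to its inhibitor TFPI within a library does not depend on library scaling and is given as a description, of RPKM. F3 over TFPI was 1.38, 1.67, 1.33 and 2.02 in the cardiac libraries, 0.823, 1.01, 0.785 and 0.932 in the hepatic libraries and 1.67, 2.07, 3.14 and 2.53 in monoculture. The hepatic libraries lay below all others, and the cardiac libraries overlapped monoculture.

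**Figure D3:**
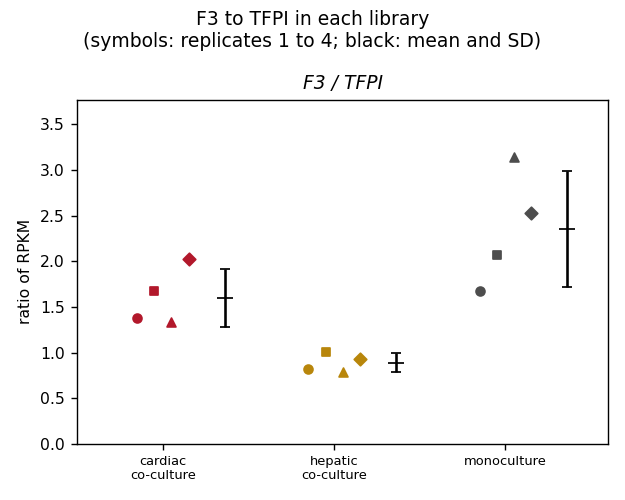
Ratio of F3 to TFPI (RPKM over RPKM, y axis from 0) in each library of the cardiac co-culture, hepatic co-culture and monoculture, with mean and SD (n = 4). The 4 hepatic libraries (0.785 to 1.01) lie below the cardiac (1.33 to 2.02) and monoculture libraries (1.67 to 3.14).

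The wider pathway was read from 5 lists of 56 further genes, of which 37 passed the low-count filter. In the hepatic co-culture 12 of the 37 were higher and 6 lower than in monoculture, where 14.4% of all tested genes were higher and 13.6% lower, and their median log2 fold change was 0.10. In the cardiac co-culture 5 were higher and 1 lower, where 4.93% of all tested genes were higher and 3.33% lower, also with a median of 0.10. The medians over all tested genes were 0.01 in both comparisons. Plasminogen itself (PLG) had no count in any library, as did HRG, F9 and F11. PLGRKT, a plasminogen receptor, did not pass (0.38 ± 0.14 in the hepatic co-culture, adjusted p = 0.0520, and 0.00 ± 0.14 in the cardiac co-culture). Its hepatic difference became a call with upper-quartile scaling (0.42, adjusted p = 0.0357), with DESeq2's test (0.38, adjusted p = 0.0430) and without monoculture replicate 4 (0.49, adjusted p = 0.0266) or hepatic replicate 1 (0.44, adjusted p = 0.0397).

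Of 6 tested inhibitors of plasminogen activators and plasmin, 3 rose and 1 fell in the hepatic co-culture and 1 rose in the cardiac co-culture, where 28.0% (hepatic) and 8.26% (cardiac) of all tested genes were called. SERPINF2, the serpin that inhibits plasmin directly, fell to 2.75 ± 0.555 CPM in the hepatic co-culture, against 4.56 ± 0.752 CPM in monoculture (-0.72 ± 0.19, edgeR adjusted p = 0.00751). For cardiac against hepatic co-culture SERPINF2 was 0.84 ± 0.19 (edgeR adjusted p = 0.0103), without overlap of the libraries. This call held whichever of the 12 libraries was left out. SERPINE2, the protease nexin that inhibits thrombin and urokinase, rose to 111 ± 28.7 CPM in the hepatic co-culture, against 63.3 ± 9.41 CPM in monoculture (0.81 ± 0.24, adjusted p = 0.0321). SERPINI1, neuroserpin, an inhibitor of PLAT, rose by 1.04 ± 0.23 (adjusted p = 0.00495), and SERPING1, the C1 inhibitor, by 1.65 ± 0.40 to only 1.43 ± 0.531 CPM (adjusted p = 0.00504). SERPINA5, the protein C inhibitor, rose to 5.18 ± 1.10 CPM in the cardiac co-culture, against 2.02 ± 0.581 CPM in monoculture (1.35 ± 0.28, adjusted p = 0.0101). In the hepatic co-culture SERPINA5 was 0.65 ± 0.28 (edgeR adjusted p = 0.0903). It became a call there without the low-count filter (0.64, adjusted p = 0.0453) and without hepatic replicate 2 (0.86, adjusted p = 0.0224). SERPINE2 was 0.51 ± 0.24 in the cardiac co-culture (adjusted p = 0.222) and 0.69 without cardiac replicate 4 (adjusted p = 0.0227). The hepatic call of SERPINE2 ended without monoculture replicates 1, 3 or 4 or hepatic replicates 1 or 3 (0.63 to 0.85, adjusted p up to 0.0873), and without the low-count filter (0.80, adjusted p = 0.0678).

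Of 15 tested genes for plasminogen-activating proteases and surface partners, 3 rose and 2 fell in the hepatic co-culture and 1 rose in the cardiac co-culture, shares near the 28.0% (hepatic) and 8.26% (cardiac) of all tested genes that were called. ITGB3, the integrin beta 3 chain, which with ITGAV binds fibrinogen and vitronectin, had 23.4 ± 7.73 CPM in the cardiac co-culture, 66.0 ± 16.0 CPM in hepatic co-culture and 9.94 ± 2.82 CPM in the monoculture libraries (SD, n = 4 each). Its log2 fold changes over monoculture were 2.73 ± 0.30 (hepatic) and 1.23 ± 0.30 (cardiac), and it was -1.50 ± 0.29 for cardiac against hepatic co-culture (edgeR adjusted p = 1.66e-04, 0.0341 and 0.0133). ITGB5 fell by 0.25 in the hepatic co-culture (-0.25 ± 0.07, adjusted p = 0.0177), and LRP1, an endocytic receptor that clears protease complexes, rose by 1.07 ± 0.32 there (adjusted p = 0.0341) and was 1.12 ± 0.32 in the cardiac co-culture (adjusted p = 0.0621). IGF2R, which binds PLAUR and plasminogen, was 0.36 ± 0.08 for cardiac against hepatic co-culture (adjusted p = 0.00953). The cardiac call of ITGB3 ended without any 1 of monoculture replicates 1 to 3 or cardiac replicates 1 to 3 (1.01 to 1.27, adjusted p up to 0.105). That of LRP1 in the hepatic co-culture ended without monoculture replicates 1, 3 or 4 or hepatic replicates 1 or 3 (0.80 to 1.07, adjusted p up to 0.0911) and without the low-count filter (1.06, adjusted p = 0.0642), and that of ITGB5 without monoculture or hepatic replicate 3 (-0.19 and -0.22). LRP1 in the cardiac co-culture became a call with DESeq2's test (1.12, adjusted p = 0.00966) and without hepatic replicate 1 (1.12, adjusted p = 0.0410) or cardiac replicate 4 (1.28, adjusted p = 0.0232).

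Of 18 procoagulant genes, 8 were tested, and 5 rose and 1 fell in the hepatic co-culture, while 2 rose in the cardiac co-culture. Of all tested genes, 14.4% rose and 13.6% fell in the hepatic comparison and 4.93% rose in the cardiac comparison. FGG, the fibrinogen gamma chain, had 3.59 ± 1.36 CPM in the cardiac co-culture, 5.06 ± 2.34 CPM in hepatic co-culture and 0.889 ± 0.533 CPM in monoculture, with log2 fold changes over monoculture of 2.52 ± 0.52 (hepatic, adjusted p = 0.00403) and 2.01 ± 0.53 (cardiac, adjusted p = 0.0391). FGA and FGB, the other fibrinogen chains, had at most 22 counts in a library. F13A1, the transglutaminase subunit that crosslinks fibrin, had 26.5 ± 6.68 CPM in the cardiac co-culture, 8.74 ± 1.67 CPM in hepatic co-culture and 21.2 ± 6.05 CPM in monoculture. It fell by 1.28 in the hepatic co-culture (-1.28 ± 0.23, edgeR adjusted p = 0.00157) and was 1.60 ± 0.23 for cardiac against hepatic co-culture (adjusted p = 0.00113). VWF, the platelet adhesion protein of endothelium, rose by 2.26 ± 0.40 (hepatic) and 1.44 ± 0.40 (cardiac), to 2.86 ± 0.804 and 1.62 ± 0.970 CPM (adjusted p = 4.96e-04 and 0.0362), beside the levels of TIE1 and the other endothelial markers, whose part in it was not tested. GGCX, the carboxylase that matures vitamin K-dependent factors, rose by 0.44 ± 0.07 in the hepatic co-culture, and LMAN1, a cargo receptor of factors V and VIII, by 0.36 ± 0.07 (adjusted p = 1.93e-04 and 9.78e-04). For cardiac against hepatic co-culture GGCX was -0.38 ± 0.07 (edgeR adjusted p = 0.00185), without overlap of the libraries. This call held whichever of the 12 libraries was left out. The cardiac calls of FGG and VWF ended in 7 and 6 of 12 fits that left out 1 library, among them those without monoculture replicates 1, 3 or 4 or cardiac replicates 1 to 3, with 1.71 to 2.17 for FGG (also without hepatic replicate 3, adjusted p up to 0.114) and 0.99 to 1.46 for VWF (adjusted p up to 0.163). The VWF call also ended in a fit on the 2 conditions alone (1.44, adjusted p = 0.0580).

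Of the 4 tested anticoagulant genes, PROS1, protein S, rose in both co-cultures and no other passed, where 28.0% (hepatic) and 8.26% (cardiac) of all tested genes were called. PROS1 had 163 ± 28.9 CPM in the cardiac co-culture, 177 ± 6.74 CPM in hepatic co-culture and 117 ± 14.1 CPM in monoculture, with log2 fold changes over monoculture of 0.60 ± 0.11 (hepatic, edgeR adjusted p = 0.00121) and 0.47 ± 0.11 (cardiac, adjusted p = 0.0212). PROCR, the endothelial protein C receptor, was 0.09 ± 0.09 and -0.17 ± 0.09 in these comparisons. Of 4 thrombin and protease-activated receptors, 2 fell in hepatic co-culture and 1 fell in cardiac co-culture, beside 13.6% and 3.33% of all tested genes that fell there. F2RL1, the receptor PAR2 that tissue factor with factor VIIa can cleave, had 199 ± 35.5 CPM in the cardiac co-culture, 223 ± 14.9 CPM in hepatic co-culture and 279 ± 35.0 CPM in monoculture, and fell by 0.49 in the cardiac (-0.49 ± 0.11, adjusted p = 0.0172) and by 0.33 in the hepatic co-culture (-0.33 ± 0.11, adjusted p = 0.0358). F2RL3, the thrombin receptor PAR4, fell by 1.32 in the hepatic co-culture to 1.18 ± 0.445 CPM (-1.32 ± 0.33, adjusted p = 0.00584), and F2R, the thrombin receptor PAR1, was -0.14 ± 0.08 and -0.12 ± 0.08 in the hepatic and cardiac co-cultures and was not called. The cardiac call of PROS1 ended without monoculture replicates 1, 3 or 4 or cardiac replicates 1 to 3 (0.41 to 0.48, adjusted p up to 0.0770), and in a fit on the 2 conditions alone (0.48, adjusted p = 0.0648). The cardiac call of F2RL1 ended without monoculture replicates 1 or 3 or cardiac replicates 1 to 3 (-0.48 to -0.42, adjusted p up to 0.0615), and its hepatic call without monoculture or hepatic replicates 1 to 3 (-0.33 to -0.26, adjusted p up to 0.120).

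**Figure D4:**
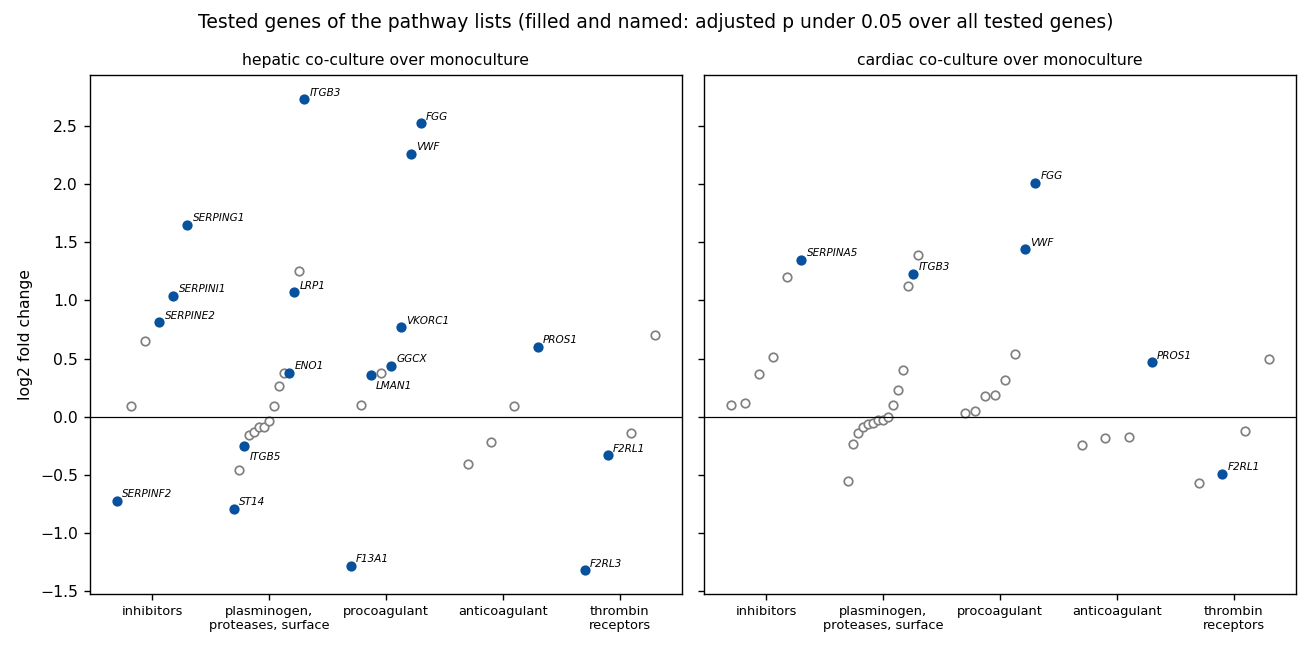
Log2 fold change (y axis) of the 37 tested genes of the 5 pathway lists, for hepatic (left) and cardiac co-culture (right) over monoculture; filled, named points have an adjusted p under 0.05. F13A1 (-1.28) is filled below 0 in the hepatic panel, and ITGB3, FGG, VWF and PROS1 are filled above 0 in both panels.

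Across the 12 libraries, which share condition and scaling, the members also ordered by how alike their levels were; these are descriptions over log2 CPM. PLAUR and TFPI had a Pearson correlation of 0.88, PLAT and TFPI 0.89, PLAUR and PLAT 0.74 and PLAUR and TFPI2 -0.82. F3 ran opposite to PLAU (-0.74) and to THBD (-0.70). Among 11670 protein-coding genes with mean log2 CPM above 1, those most like TFPI were LMAN1 and MARCKS (0.98 each), those most like PLAUR were FKBP10 (0.97) and SEMA4B (0.96), and those most like PLAT were PRDX5 (0.97) and PHF1 (0.96). F3 was most like DNAJC1 and CCDC69 (0.95 each), and TFPI2 most like HSPE1 (0.96) and NUP43 (0.95). For PLAU these were SMARCD2 (0.92) and ADGRG1 (0.89), for THBD BCL7A (0.91) and PCDHGC3 (0.89), for ANXA2 PNPLA8 and KIAA1143 (0.95 each) and for SERPINB2 LNPEP and LRBA (0.86 each).

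**Figure D5:**
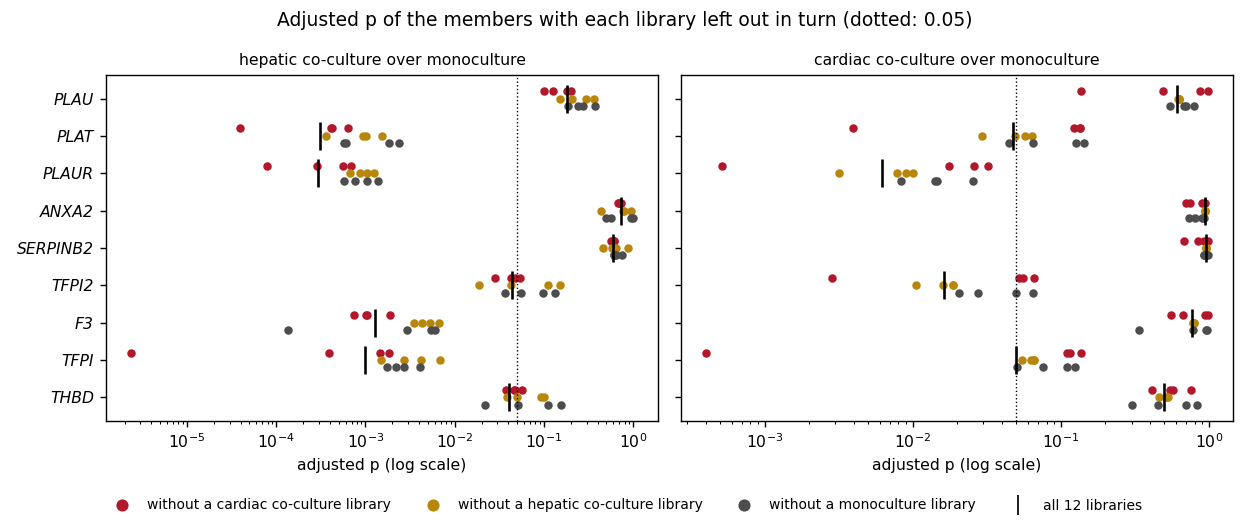
Adjusted p (x axis, log scale) of the 9 members for hepatic (left) and cardiac co-culture (right) over monoculture with each of 12 libraries left out in turn; colours give the condition of the library left out, the black bar the value with all 12 libraries and the dotted line 0.05. In the left panel all points of PLAT, PLAUR, F3 and TFPI lie below 0.05, and in the right panel all points of PLAUR, while TFPI falls to 4.03e-04 without cardiac replicate 4 and is above 0.05 in the other 11 fits.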

How the data were processed

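Poly(A) RNA-seq was made from cancer tissue in 12 libraries, 4 per condition, with non-strand-specific and strand-specific preparation both described in the labels' protocols. The deposited values are whole-number counts per gene, not normalized, made by the authors. The submitters' processing notes name HISAT2 2.2.1, featureCounts 2.0.6, DESeq2 1.42.0 and GRCh38, while strand setting, multiply mapped reads and annotation release were not given in the sources used here. All 58735 gene IDs were found in GENCODE 29, which gave names, positions and exon-union lengths for RPKM.

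Totals of 26227140 to 42430001 counts per library make counting error small for all members but SERPINB2. Counts were filtered with filterByExpr (17468 genes, 99.9% of counts), scaled by TMM and fitted with edgeR 4.0.16 (R 4.3.3, robust quasi-likelihood test, 1 fit over 12 libraries), with Benjamini-Hochberg adjustment over all tested genes and a threshold of 0.05. The SE is the log2 fold change divided by the square root of F, and intervals are 95%. The fit was tested on simulated data. CPM and log2 CPM (prior count 2) are computed values. No 2 libraries of a group agreed within sampling noise (lowest chi-square per degree of freedom 8.68).

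Named were all members, 8 fixed pathway genes, up to 3 called genes of smallest adjusted p per list and comparison, and for each member the 2 most correlated protein-coding genes with mean log2 CPM above 1. An item of the lists is not reported here. Members and lists were chosen with earlier results of these data known. Alternatives were DESeq2's size factors, upper-quartile scaling, DESeq2's test, no low-count filter, a replicate block, fits on 2 conditions alone, each library left out, and overlapping or pseudogene counts added to PLAU and ANXA2.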

Additional observations from a re-analysis of the deposited data

Results flagged for a closer look

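In 4 of 90 groups of 4 libraries checked, 1 library stood apart from the other 3 by Dixon's criterion, where chance flags about 1 group in 20. F2R had 54.8 CPM in cardiac replicate 4, beside 49.3 to 50.1 CPM in the other cardiac libraries. SERPING1 had 1.65 CPM in cardiac replicate 3, beside 0.806 to 0.868 CPM in the others. ITGB3 had 42.2 CPM in hepatic replicate 4, beside 72.4 to 76.3 CPM in the others. IGF2R had 464 CPM in monoculture replicate 4, beside 425 to 426 CPM in the others. No member had such a library.

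The effects of cardiac and hepatic co-culture on F3 differed, by 0.47 on the log2 scale (-0.06 in the cardiac and -0.53 in the hepatic co-culture, each against monoculture; edgeR adjusted p of the difference = 0.0103).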

How the results depend on the processing

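For the members, 158 of 166 values under alternatives other than leaving out a library, and 276 of 324 with 1 library left out, kept their direction and their side of the threshold. Upper-quartile scaling left 1 member lower in the hepatic co-culture, and fits on 2 conditions alone left 1 member higher in the cardiac co-culture. Without the low-count filter 1 member was lower in the cardiac than in the hepatic co-culture, and 991 genes were lower in the cardiac co-culture than in monoculture. DESeq2's test called 1336 genes higher and 943 lower in that comparison; the cause was not tested. With 1 library left out, members called higher and lower numbered 3 to 4 and 1 to 2 in the hepatic comparison, 1 to 3 and 0 to 1 in the cardiac comparison, and 1 to 1 and 0 to 1 between the co-cultures. Genes called ran from 1883 to 2755 higher and 1748 to 2774 lower (hepatic), 194 to 1754 higher and 69 to 1624 lower (cardiac), and 370 to 694 higher and 306 to 575 lower (cardiac against hepatic). The sign turned with 1 library left out for values that were not called: ANXA2 (-0.12 to 0.01) in the hepatic comparison; SERPINB2 (-0.54 to 0.21), F3 (-0.15 to 0.01), ANXA2 (-0.07 to 0.07) and PLGRKT (-0.07 to 0.11, and -0.01 without the low-count filter) in the cardiac comparison. Between the co-cultures it turned for PLAUR (-0.08 to 0.02), SERPINB2 (-0.08 to 0.67), ANXA2 (-0.01 to 0.14), S100A10 (-0.01 to 0.08), F2R (-0.02 to 0.05), ITGB5 (-0.01 to 0.08), LRP1 (-0.18 to 0.31) and PROS1 (-0.18 to 0.00). The replicate numbers did not pair the libraries (r -0.08 to 0.11 over 12 same-numbered pairs, 1 above 0.1). With the replicate block, 2401 genes were higher and 2259 lower in the hepatic, 798 and 512 in the cardiac comparison and 454 and 437 between the co-cultures, and the calls of THBD (0.25, adjusted p = 0.0545), F2RL1 (-0.33, 0.0531) and LRP1 (1.05, 0.0608) in the hepatic and ITGB3 (1.18, 0.0566) and VWF (1.33, 0.0511) in the cardiac comparison ended. The median log2 fold change of all genes in the hepatic comparison was 0.054 with upper-quartile scaling and 0.015 with TMM. Depth limits SERPINB2, whose libraries held 2 to 25 counts.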
